A study of Danio rerio with 6 samples.

Results

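The forkhead (Fox) and Sox transcription factor genes of the zebrafish were followed through 3 stages of embryonic development. Members were taken by gene symbol, as every gene of the deposited gene table whose symbol starts with fox and a letter from a to r with a number, or with sox and a number. This rule found 81 of 30111 genes, namely 54 Fox genes in 17 subgroups (FoxA to FoxQ), 26 Sox genes in 6 subgroups (SoxB1 to SoxF) and the lncRNA gene *sox2ot*, which carries the symbol of a Sox gene but encodes no factor. The 80 factor genes lie among the 27018 genes of that table that are not listed as lncRNAs, and *sox2ot* was kept apart. Of the 81 symbols, 79 were found in the RefSeq gene table, all of them on the same chromosome as in the deposited table.

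Fox proteins bind DNA through the forkhead domain and Sox proteins through an HMG box, and members of a subgroup share most of their binding domain and often act in the same tissue. In the vertebrate embryo, FoxA factors mark the endoderm, notochord and floor plate, FoxD3 and SoxE factors the neural crest, SoxB1 factors the neural progenitors, SoxC factors the neurons that leave this state, and SoxF factors the early endoderm and the vessels. The genome duplication of teleost fish left many of these genes as pairs, written a and b.

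RNA was sequenced from whole embryos of the wild-type AB line, with no treatment or mutation in any group. T1 embryos were taken at 10 hpf, when gastrulation ends, T2 embryos at 24 hpf and T3 embryos at 36 hpf, and each stage was split at random into the embryos of 2 libraries. Nothing says that the 2 libraries of a stage came from separate clutches, so a *p* value here covers library-to-library spread that may only be technical. Levels are given as RPKM, which divides the reads of a gene by its exon length and by the reads in genes of the library, on GRCz11. They rest on 43611332 to 51846237 reads in genes per library. In whole embryos, fewer cells of a type and less RNA per cell cannot be told apart. Where no read was counted, up to 3 reads could have been missed by counting error alone, which is 0.0579 to 0.0688 RPKM for a gene of 1 kb.

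Muscle, blood, lens and gastrula genes checked the labels. All 7 muscle, blood and lens genes were upregulated in every comparison. Of the 4 gastrula genes, 3, 1 and 2 were downregulated between T2 and T1, T3 and T2 and T3 and T1. The gastrula gene *gsc* had 1.36 ± 0.93 RPKM at T1, 0.033 ± 0.031 at T2 and 0.474 ± 0.002 at T3, and so rose after T2. The 11 genes summed to 25.2 and 32.3 RPKM at T1, 1624 and 1853 RPKM at T2 and 6453 and 6657 RPKM at T3. At T2 and T3 the muscle genes made up most of this sum, with *myhz1.1* at 867 ± 89 and 3623 ± 188 RPKM, so it does not show the gastrula genes. The T1 libraries differed more than those of the later stages. At T1, *foxd1*, *sox7* and *sox17*, 3 of 54 members with at least 1 RPKM in a library (5.56%), lay 2-fold or more apart as RPKM + 0.5, beside 4.89% of all such genes. At T2 and T3, 0 of 54 and 0 of 58 members did, beside 0.32% and 0.27%. Sums over some sets of genes also differed, while others were close. In T1 replicates 1 and 2, the 4 yolk syncytial genes summed to 1283 and 1324 RPKM and the 11 neural progenitor genes to 161 and 169 RPKM. The summed level in T1 replicates 1 and 2 was 3692 and 2335 RPKM for the 5 enveloping layer genes, 70.7 and 35.4 RPKM for the 9 cartilage genes, 23.6 and 39.4 RPKM for the 9 Nodal target genes and 3.97 and 9.92 RPKM for the 8 maternal genes. The part of these differences in the results on single members was not tested.

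Fox and Sox genes were widely present, and the Sox genes held the highest levels. Of the 80 factor genes, 44 had at least 1 RPKM in every library (55.0%, beside 44.0% of all genes outside the lncRNA table). At least 1 RPKM in both libraries was reached by 47 at T1, 51 at T2 and 58 at T3 (58.8%, 63.8% and 72.5%), beside 47.8%, 55.4% and 56.4% of all genes outside the lncRNA table. At least 10 RPKM was reached by 9, 10 and 12 of the 26 Sox genes (34.62%, 38.46% and 46.15%). Of the 54 Fox genes, 5, 3 and 4 reached it (9.26%, 5.56% and 7.41%), beside 17.45%, 18.53% and 17.93% of all genes outside the lncRNA table. Below 1 RPKM in every library were 13 Fox and 2 Sox genes (24.1% and 7.7%), beside 35.0% of all genes outside the lncRNA table. Among the 65 members with 1 RPKM or more in a library, the highest stage mean was at T1 for 23, at T2 for 13 and at T3 for 29 (35.4%, 20% and 44.6%), beside 43.9%, 25.1% and 31% of all such genes.

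**Figure D1:**
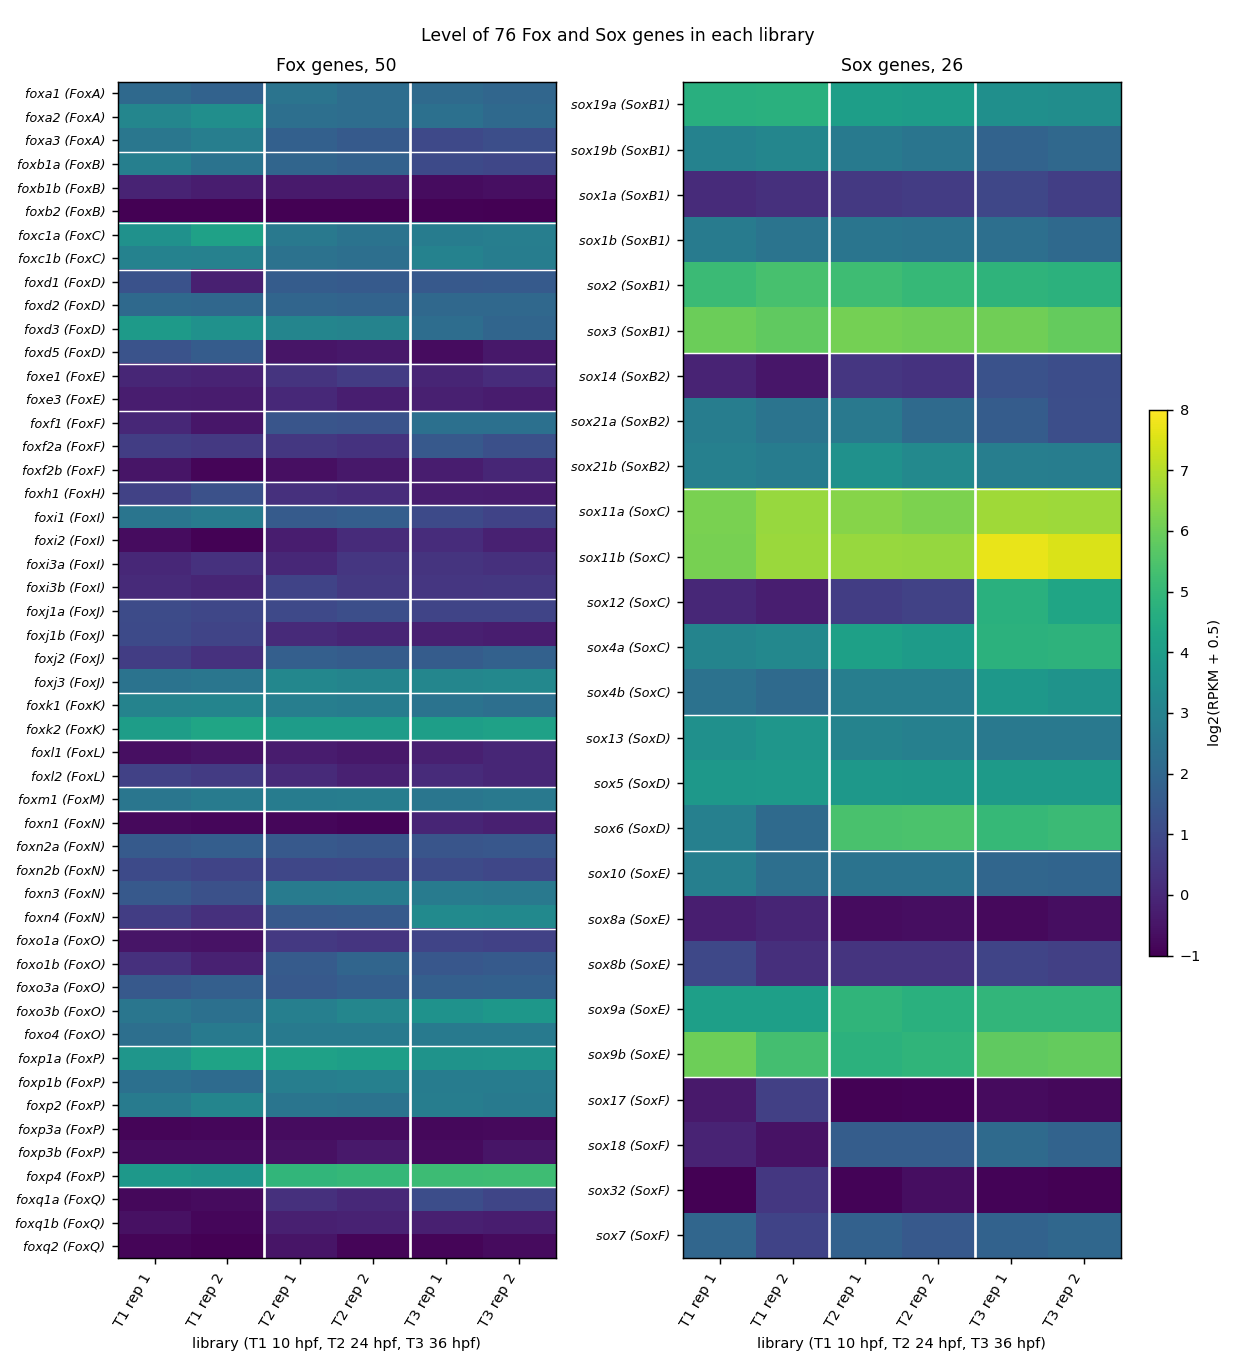
Level of 76 Fox and Sox factor genes as log2(RPKM + 0.5) in the 6 libraries, with the 2 families in separate panels and white lines between subgroups and stages. The brightest cells are those of *sox11b* at T3, at 210.0 and 179.1 RPKM, and *foxb2* and *foxq2* are dark in each library.

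The sum over the Sox genes went from 430.9 and 452.6 RPKM at T1 to 486.0 and 461.2 RPKM at T2 and 656.8 and 605.5 RPKM at T3, and the sum over the Fox genes stayed between 182.3 and 211.6 RPKM. Within the Sox sum, SoxC genes held 36.1% and 46.6% at T1 and 58.2% and 55.9% at T3, and SoxB1 genes held 31.7% and 29.9% at T1 and 17.3% and 17% at T3. Within the Fox sum, FoxP genes held 20.4% and 21.9% at T1 and 28.7% and 29.1% at T3, and FoxC genes 10.4% and 12.7% at T1 and 6.51% and 6.26% at T3. Levels of different genes carry 1 limit. For 15 of the 81 members (18.5%, beside 20.4% of all genes outside the lncRNA table), the table lists exons on a chromosome and on further scaffolds, and its exon length counts these copies together. It is 3 times the chromosomal length for *foxb1b*, *foxi3b* and *sox1a*, 2 times for *foxd5*, *foxi2*, *foxl1*, *sox19a* and *sox21a*, and between 1.03 and 1.97 times for others. The level of these genes beside other genes is thus uncertain, while stages of a gene were compared over the same length.

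Each pair of stages was compared with limma on log2(RPKM + 0.5), fitted over all genes outside the lncRNA table with at least 0.1 RPKM in at least 2 of the 4 libraries of the pair. A gene was called upregulated or downregulated at a Benjamini-Hochberg adjusted *p* value below 0.05 and an absolute log2 fold change above 1, and other values are given as measured. The scale understates the change of genes with low values, and a gene below 0.5 RPKM in every library cannot pass the fold threshold. The 3 comparisons share libraries. An exact two-sided permutation test over 4 libraries has a smallest *p* value of 0.333 for any gene, so a call depends on the variance that limma borrows from the other genes.

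Between T2 and T1, 9 factor genes were upregulated and 4 downregulated. The upregulated ones included *sox6*, *sox18*, *foxo1b*, *foxf1*, *foxn3*, *foxp4*, *foxj2* and *foxn4*, and the downregulated ones were *foxd5*, *foxc1a*, *foxa3* and *foxa2*. They made up 16.9% of the 77 members tested, beside 16.3% of 23028 genes (12.8% called higher and 3.45% lower), so the share of members was near that of all genes. Of the 51 Fox genes tested, 11 were called, and of the 26 Sox genes 2. The median log2 fold change was 0.15 over the members and 0.08 over all genes. *foxb2*, *foxn1* and *foxq2* were below the filter. Without T2 replicate 1 or 2, limma called 0 members (1.05% and 0.0521% of all genes), while 14 and 13 had an unadjusted *p* value below 0.05 and the same fold. Between T2 and T1, 9 of the calls were kept in both fits without a T1 library. Without T1 replicate 1, *foxd1*, *foxh1*, *foxi1*, *foxo1a*, *sox17* and *sox32* were added to the calls. The fits without a T1 library took their spread from the T2 libraries alone, which differed less than those of T1.

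Between T3 and T2, 5 factor genes were upregulated (*sox12*, *foxn4*, *sox9b* and *sox11b* among them) and none downregulated. They made up 6.49% of the 77 members tested, beside 6.14% of 23161 genes (4.03% called higher and 2.11% lower). At an unadjusted *p* value below 0.05 with the same fold, limma gave the same number of 5 higher and 0 lower, and voom on the recovered reads called 11 higher and 5 lower. At any fold, 38 members passed the adjusted *p* value (49.4%, beside 43.5% of all genes). *foxb2*, *sox17* and *sox32* were below the filter.

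Between T3 and T1, 18 factor genes were upregulated and 12 downregulated, which made up 39.5% of the 76 members tested, beside 25.9% of 23133 genes (17.2% called higher and 8.76% lower). Among the members, 23.7% were called higher and 15.8% lower. These shares are a description with no test, and many members are paralogs. The median log2 fold change was 0.13 over the members and 0.01 over all genes. Of the 51 Fox genes tested 20 were called, and of the 25 Sox genes 10. *foxb2*, *foxp3a*, *foxq2* and *sox32* were below the filter. Without T3 replicate 1 or 2, 16 and 15 members were called, beside 15.1% and 14.9% of all genes. In every fit without a library, 14 of the 30 calls were kept, among them those of *foxa3*, *foxd3*, *foxd5*, *foxf1*, *foxi1*, *foxn4*, *foxo1a*, *foxp4*, *foxq1a*, *sox4a*, *sox12*, *sox18* and *sox19a*. In all, 31 of the 80 factor genes were called in at least 1 comparison, which is 39.2% of the 79 tested in at least 1, beside 27.7% of all 23791 such genes.

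**Figure D2:**
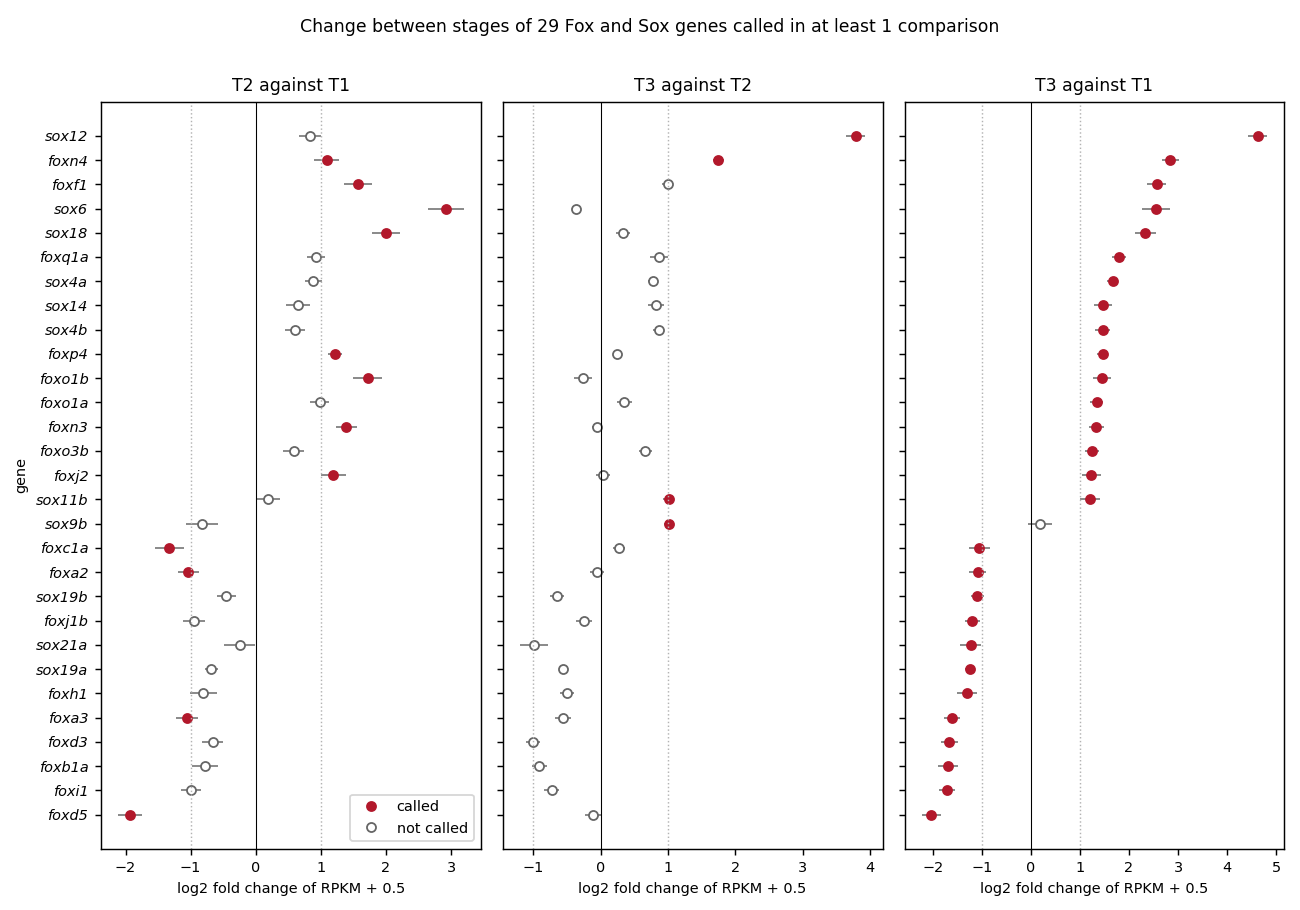
Log2 fold change of RPKM + 0.5 of 29 factor genes called in at least 1 comparison, one panel per pair of stages, with bars for the standard error and filled points for calls. The largest positive value of T2 against T1 is that of *sox6* (2.92), and *sox12* leads at T3 against T2 (3.79) and at T3 against T1 (4.62).

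SoxB1 factors hold cells in the neural progenitor state. *sox3* was the most abundant of the 6 genes, with 62.8 and 54.9 RPKM at T1, 69.1 and 65.9 at T2, then 65.2 and 57.4 at T3, and its T1 and T3 libraries overlapped. *sox2* had 34.4 and 41.1 RPKM at T1, 36.7 and 32.3 at T2, then 28.7 and 26.7 at T3, where both libraries lay below all others. Neither gene was called in any comparison (*sox2*, T3 against T1, log2 fold change -0.44, SE 0.13, limma adjusted *p* = 0.0415).

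The SoxB1 genes that were called were the *sox19* pair, which in the fish takes part in the earliest neural specification. *sox19a* (chr5:24199180-24201444) had 25.2 and 25.5 RPKM at T1, 15.9 and 15.4 at T2, then 10.77 and 10.21 at T3, and the 3 stages did not overlap. It was downregulated between T3 and T1 (log2 fold change -1.24, SE 0.10, limma adjusted *p* = 0.00106). *sox19b* was downregulated by -1.09 (SE 0.13, limma adjusted *p* = 0.00302), from 7.77 ± 0.55 RPKM at T1 to 3.38 ± 0.31 RPKM at T3 (SD, n = 2), a call that was lost when library medians were aligned and without either T3 library (adjusted *p* = 0.065 and 0.0537). *sox1a* and *sox1b* were not called. The 6 genes summed to 136.6 and 135.3 RPKM at T1, 133.7 and 124.6 RPKM at T2 and 113.6 and 102.7 RPKM at T3.

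The lncRNA gene *sox2ot* (chr22:37276899-37526793) spans the locus of *sox2* (chr22:37347893-37349978) on the same strand. It was fitted with all 25088 to 25184 genes of the table, annotated lncRNAs included. No other fit held it, so its calls were not checked without single libraries or under other scalings and pseudocounts. *sox2ot* had 3.92 and 4.04 RPKM at T1, 1.72 and 1.60 at T2, then 1.45 and 1.51 at T3, and T1 did not overlap with the later stages. It was downregulated between T2 and T1 (log2 fold change -1.05, SE 0.14, limma adjusted *p* = 0.00797) and between T3 and T1 (-1.18, SE 0.13, adjusted *p* = 0.00257), where 15.4% and 25% of all genes of these fits were called. Between T3 and T2 it was not (-0.13, adjusted *p* = 0.366).

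SoxB2 factors counteract SoxB1 in the neural tube, and the 3 genes had different courses. *sox14* was upregulated between T3 and T1 (log2 fold change 1.48, SE 0.18, limma adjusted *p* = 0.00324), from 0.33 ± 0.14 RPKM to 1.80 ± 0.19 RPKM. *sox21a* was downregulated (-1.23, SE 0.22, adjusted *p* = 0.0098), from 5.72 ± 1.09 RPKM to 2.16 ± 0.58 RPKM, and was also called between T3 and T2 without T2 replicate 2 (-1.24) or T3 replicate 1 (-1.21). The calls of *sox14* and *sox21a* were lost without either T3 library. Its paralog *sox21b* had the highest deposited level of the subgroup, where the length of *sox21a* counts its copies 2 times, so that the order of both genes is uncertain. *sox21b* was highest at T2, with 11.2 and 9.02 RPKM, against 7.13 and 6.36 at T1 and 6.65 and 6.57 at T3. It was not called.

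The SoxC genes included *sox12*, which had the largest log2 fold change of the members between T3 and T2 and between T3 and T1. *sox11b* (chr20:30032636-30035292) and *sox11a* (chr17:35878547-35881807), factors of differentiating neurons, were the most abundant of all members. *sox11b* had 70.6 and 100.3 RPKM at T1, 96.4 and 95.5 at T2, then 210.0 and 179.1 at T3. T1 and T2 overlapped, and both T3 libraries lay above them. *sox11b* was upregulated between T3 and T2 (log2 fold change 1.01, SE 0.09, limma adjusted *p* = 0.000337) and between T3 and T1 (1.2, SE 0.20, adjusted *p* = 0.0082). The first call was lost without T3 replicate 1 (0.90) and the second without T1 replicate 1 or either T3 library. *sox11a* had 71.6 and 97.7 RPKM at T1, 81.9 and 75.2 at T2, then 105.9 and 101.2 at T3. It was not called, with log2 fold changes of 0.40 between T3 and T2 and 0.31 between T3 and T1.

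*sox12* (chr11:24190164-24191928), the third kind of SoxC gene, which in the mouse is coexpressed with *Sox4* and *Sox11*, was below 0.5 RPKM at T1 and abundant at T3. *sox12* had 0.491 and 0.347 RPKM at T1, 1.05 and 1.21 at T2, then 25.6 and 18.9 at T3, and the 3 stages did not overlap. Its RNA was upregulated between T3 and T2 by a log2 fold change of 3.79 (SE 0.14, limma adjusted *p* = 2.95e-05) and between T3 and T1 by 4.62 (SE 0.20, adjusted *p* = 0.000286). Both calls were kept without any single library and under each alternative tried.

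The *sox4* pair had a higher mean at each later stage. *sox4a* (chr19:28786149-28789409) had 7.93 and 8.67 RPKM at T1, 16.6 and 14.9 at T2, then 27.3 and 27.5 at T3, with no overlap between stages. It was upregulated between T3 and T1 (log2 fold change 1.67, SE 0.11, limma adjusted *p* = 0.000618), and the single steps of 0.89 and 0.78 stayed below the fold threshold. *sox4b*, the less abundant copy, was upregulated over the same interval by 1.47 (SE 0.15, adjusted *p* = 0.00208), from 4.26 ± 0.67 RPKM to 12.6 ± 1.1 RPKM (SD, n = 2). The call of *sox4b* was lost without T3 replicate 1 (adjusted *p* = 0.0523).

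SoxD factors lack an activation domain of their own and bind DNA with partners such as Sox9. *sox6* (chr7:27320462-27449391), which in the zebrafish represses slow muscle genes in fast fibers, gave the largest change between T2 and T1. *sox6* had 7.14 and 3.87 RPKM at T1, 42.7 and 43.5 at T2, then 32.4 and 34.3 at T3, and no 2 stages overlapped. It was upregulated between T2 and T1 (log2 fold change 2.92, SE 0.28, limma adjusted *p* = 0.00304) and between T3 and T1 (2.55, SE 0.28, adjusted *p* = 0.00239), and between T3 and T2 the value was -0.36. Without T1 replicate 1 or 2, the first of these was 3.32 and 2.51. The call between T2 and T1 was lost without either T2 library, and that between T3 and T1 without T3 replicate 2 (2.51).

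*sox5* and *sox13*, the other two SoxD genes, were not called. *sox5* had 13.6 and 13.8 RPKM at T1, 13.5 and 13.1 at T2, then 14.5 and 14.5 at T3. Its log2 fold changes were -0.04, 0.12 and 0.08 in the 3 comparisons. *sox13* had 11 and 12.8 RPKM at T1, 7.70 and 7.04 at T2, then 5.69 and 5.74 at T3, and its log2 fold change between T3 and T1 was -0.99 (SE 0.12, limma adjusted *p* = 0.00332), just within the fold threshold. Without T1 replicate 1 it was -1.09.

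SoxE factors act in the neural crest, its pigment and glial descendants and in cartilage. *sox9b* (chr3:62522542-62527667) had 63.8 and 39.1 RPKM at T1, 27.0 and 29.1 at T2, then 55.4 and 58.6 at T3, so that T2 was the lowest stage and T1 and T3 overlapped. It was upregulated between T3 and T2 (log2 fold change 1.01, SE 0.07, limma adjusted *p* = 0.000152), a call that was lost without T2 replicate 1 (0.96) or T3 replicate 2 (0.97). Between T2 and T1 the value was -0.82 (adjusted *p* = 0.0511). Without T1 replicate 2 it was -1.17, so 1 library moved it past the fold threshold.

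The paralog *sox9a* had 16.6 and 16.5 RPKM at T1, 29.5 and 25.8 at T2, then 30.1 and 29.9 at T3. *sox9a* was lowest at T1 without overlap and was not called, with a log2 fold change of 0.84 between T3 and T1. *sox10*, which drives pigment cells and glia of the crest, had 6.87 and 4.40 RPKM at T1, 4.91 and 4.93 at T2, then 3.39 and 3.26 at T3, and was not called. *sox8b* lay between 0.664 and 1.41 RPKM, without a call. *sox8a* did not exceed 0.446 RPKM, too low for a call on this scale, and its log2 fold change between T3 and T1 was -0.55 (limma adjusted *p* = 0.0163).

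SoxF genes fell into vessel and endoderm members. *sox18* (chr23:8797002-8800754), a factor of vessel and lymphatic cells, had 0.423 and 0.174 RPKM at T1, 2.64 and 2.67 at T2, then 3.81 and 3.15 at T3. Its T1 libraries lay below all others, and it was upregulated between T2 and T1 (log2 fold change 2.00, SE 0.21, limma adjusted *p* = 0.00376) and between T3 and T1 (2.33, SE 0.21, adjusted *p* = 0.00146). The call of *sox18* between T2 and T1 was lost without either T2 library. *sox7*, its partner in the vessels, was the most abundant SoxF gene at T1 with 3.38 and 1.25 RPKM, had 2.99 and 2.37 at T2, then 3.10 and 3.56 at T3, and was not called. Without T1 replicate 1, the log2 fold change of *sox7* between T3 and T1 was 1.12.

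The endoderm genes *sox32*, which in the zebrafish is needed for endoderm formation, and *sox17* (chr7:58773148-58776152), which acts downstream of it, are neighbors on chromosome 7, with 48374 bases between them. *sox32* had 0 reads in T1 replicate 1 and 48 in T1 replicate 2, and 0 to 8 reads in each later library. *sox17* had 19 and 86 reads at T1 (0.262 and 1.14 RPKM), 2 and 2 at T2, then 8 and 6 at T3. Both genes were thus highest in T1 replicate 2, and neither was called. With both T1 libraries, the log2 fold change between T2 and T1 was -1.09 for *sox17* and -0.51 for *sox32*. With T1 replicate 2 as the single T1 library, it was -1.65 and -1.24, and that of *sox17* between T3 and T1 was -1.49. The 9 genes of the endoderm list summed to 80.8 and 98.9 RPKM in the T1 libraries. The part of the composition of the T1 libraries in the levels of both genes was not tested.

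**Figure D3:**
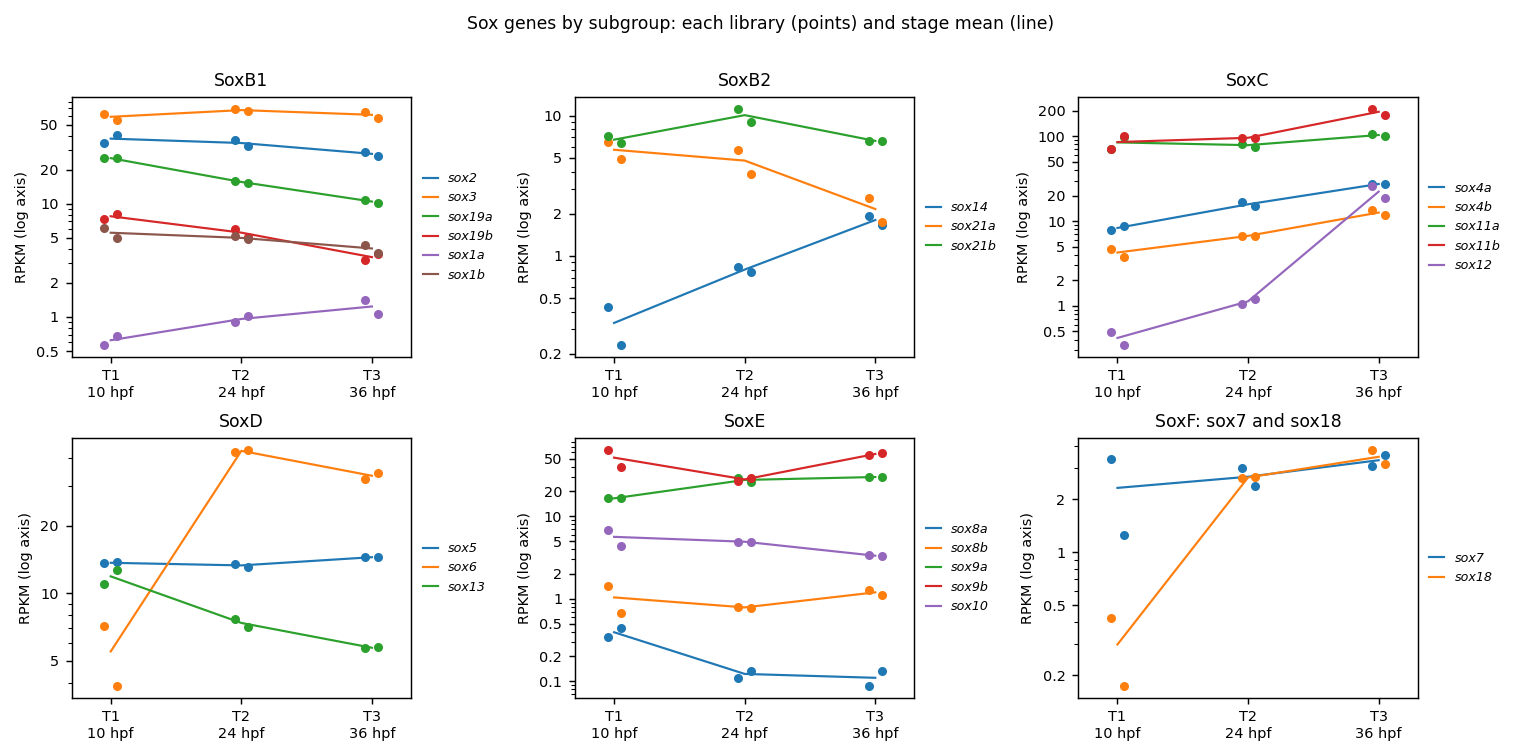
RPKM of the Sox genes by subgroup on log axes, with a point per library and a line through the stage means, without *sox17* and *sox32*, which had too few reads. The panels show *sox12* passing from 0.491 and 0.347 RPKM at T1 to 25.6 and 18.9 RPKM at T3, *sox6* stepping up at T2 and *sox9b* dipping to 27.0 and 29.1 RPKM at T2.

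Of the FoxA genes, *foxa2* and *foxa3* were downregulated and *foxa1* was not. FoxA factors open chromatin in the endoderm and act in the notochord and floor plate. *foxa2* (chr17:42565998-42568438), with 8.21 and 10.4 RPKM at T1, 4.39 and 4.14 at T2, then 4.45 and 3.75 at T3, was downregulated between T2 and T1 (log2 fold change -1.03, SE 0.16, limma adjusted *p* = 0.00943) and between T3 and T1 (-1.09, SE 0.17, adjusted *p* = 0.00619). T1 lay above the later stages, which overlapped. *foxa3* (chr18:46350574-46354010) had 5.43 and 6.68 RPKM at T1, 2.87 and 2.42 at T2, then 1.5 and 1.76 at T3, with no overlap, and was downregulated by -1.06 (SE 0.17, adjusted *p* = 0.0104) and -1.62 (SE 0.16, adjusted *p* = 0.00182) in the same comparisons. Without T1 replicate 2, the values between T2 and T1 were -0.87 and -0.92 and neither gene was called, and *foxa2* was -0.93 and not called between T3 and T1. Without T3 replicate 1 or 2, or with aligned library medians, the call of *foxa2* between T3 and T1 was lost too. The calls of both genes between T2 and T1 were also lost without either T2 library. *foxa1* was not called and had its highest mean, 4.57 ± 0.59 RPKM (SD, n = 2), at T2.

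*foxb1a* (chr25:34154171-34156082), a gene of the neural tube, had 6.88 and 4.90 RPKM at T1, 3.35 and 3.0 at T2, then 1.55 and 1.37 at T3. The stages did not overlap, and it was downregulated between T3 and T1 (log2 fold change -1.69, SE 0.20, limma adjusted *p* = 0.00271), a call that was lost without either T3 library (adjusted *p* = 0.0516 and 0.0576). *foxb1b* did not exceed 0.429 RPKM, and *foxb2* had 0 reads in 5 libraries and 2 in T3 replicate 1.

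FoxC1 acts in the paraxial mesoderm and later in vessels and the eye. *foxc1a* (chr2:686873-689052) had 11.4 and 17.3 RPKM at T1, 5.75 and 4.89 at T2, then 6.40 and 6.64 at T3, and T1 lay far above both later stages, which did not overlap either. It was downregulated between T2 and T1 (log2 fold change -1.33, SE 0.23, limma adjusted *p* = 0.0125) and between T3 and T1 (-1.05, SE 0.22, adjusted *p* = 0.0148). Without T1 replicate 2, the second value was -0.76 and was no call, nor was it without either T3 library or with aligned library medians. The first call was lost without either T2 library. *foxc1b* had 7.52 and 7.22 RPKM at T1, 4.71 and 4.42 at T2, then 7.39 and 6.54 at T3, and was not called.

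FoxD3 keeps neural crest cells multipotent, and *foxd5* is a gene of the early neural plate and tailbud. *foxd3* (chr6:32092032-32093830) had 14.5 and 11.2 RPKM at T1, 8.08 and 7.65 at T2, then 4.1 and 3.30 at T3. The stages did not overlap, and it was downregulated between T3 and T1 (log2 fold change -1.66, SE 0.18, limma adjusted *p* = 0.00229). Between T3 and T2 the value lay at the fold threshold (-1.0, SE 0.11, adjusted *p* = 0.000809) without a call, and was called without T2 replicate 2 (-1.04) or T3 replicate 1 (-1.14). *foxd5* (chr8:30452945-30454096) had 1.97 and 2.60 RPKM at T1, 0.213 and 0.243 at T2, then 0.114 and 0.243 at T3. It was the Fox gene with the most negative log2 fold change, -1.93 between T2 and T1 (SE 0.18, adjusted *p* = 0.00311) and -2.03 between T3 and T1 (SE 0.19, adjusted *p* = 0.00156). The call of *foxd5* between T2 and T1 was lost without either T2 library.

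*foxd2* lay between 3.13 and 3.70 RPKM in all 6 libraries and was not called. *foxd1*, a gene of the retina and kidney stroma in the mouse, had 1.92 and 0.370 RPKM at T1, 2.57 and 2.43 at T2, then 2.33 and 2.43 at T3, and its T1 libraries were farther apart than those of any other Fox gene above 1 RPKM. It was not called (T2 against T1, log2 fold change 1.05, SE 0.49, limma adjusted *p* = 0.153). Without T1 replicate 1, the value was 1.78.

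*foxh1* (chr12:13723590-13730658), the forkhead partner of Smad2 in Nodal signaling, had 1.21 and 1.84 RPKM at T1, 0.679 and 0.613 at T2, then 0.318 and 0.303 at T3. The stages did not overlap, and it was downregulated between T3 and T1 (log2 fold change -1.31, SE 0.20, limma adjusted *p* = 0.00567), a call that was lost without either T3 library. *foxi1* (chr12:43662978-43664682), which the otic placode and the jaw need, had 5.19 and 6.26 RPKM at T1, 2.49 and 2.74 at T2, then 1.51 and 1.28 at T3. It was downregulated over the same interval by -1.72 (SE 0.16, adjusted *p* = 0.00148). The ionocyte factor genes *foxi3a* and *foxi3b* had stage means between 0.497 and 1.08 RPKM and were not called.

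FoxJ1 switches on the genes of motile cilia. *foxj1b* was downregulated between T3 and T1 (log2 fold change -1.19, SE 0.15, limma adjusted *p* = 0.00306), from 1.42 ± 0.17 RPKM to 0.34 ± 0.03 RPKM (SD, n = 2), a call that was lost without either T3 library. *foxj1a*, its paralog, lay between 1.29 and 1.73 RPKM in the 6 libraries. It was not called, and T1 and T2 overlapped. *foxj2* (chr16:12758007-12787113), which encodes another activator of the FoxJ subgroup, had 1.07 and 0.725 RPKM at T1, 2.79 and 2.57 at T2, then 2.57 and 2.97 at T3, and was upregulated between T2 and T1 (1.19, SE 0.19, adjusted *p* = 0.0102) and between T3 and T1 (1.23, SE 0.18, adjusted *p* = 0.0056). The first call of *foxj2* was lost without either T2 library and the second without either T3 library. *foxj3* was the most abundant of the subgroup, with 4.91 and 5.30 RPKM at T1, 8.45 and 7.87 at T2, then 8.17 and 8.78 at T3. T1 was the lowest stage, but *foxj3* was not called.

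FoxF1 marks the splanchnic mesoderm around the gut. *foxf1* (chr18:30847237-30851101) had 0.498 and 0.229 RPKM at T1, 2.07 and 2.00 at T2, then 4.55 and 4.55 at T3, with no overlap of stages. It was upregulated between T2 and T1 (log2 fold change 1.57, SE 0.21, limma adjusted *p* = 0.00665) and between T3 and T1 (2.57, SE 0.20, adjusted *p* = 0.000948), and the value between T3 and T2, 0.996, was just short of the fold threshold. Without T2 replicate 1 it was 1.02 and was called. The call of *foxf1* between T2 and T1 was lost without either T2 library. *foxf2a* and *foxf2b* were not called. *foxf2a* had 2.09 ± 0.42 RPKM at T3, and was called between T3 and T2 without T2 replicate 1 (1.06) or T3 replicate 2 (1.14).

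*foxq1a* (chr2:720779-722170) was upregulated between T3 and T1 (log2 fold change 1.80, SE 0.15, limma adjusted *p* = 0.00113), with 0.0659 and 0.0952 RPKM at T1, 0.675 and 0.536 at T2, then 1.69 and 1.36 at T3. Its neighborhood is a small cluster of Fox genes on chromosome 2, in which *foxf2a* lies 24652 bases from *foxc1a* and 4353 bases from *foxq1a*. Between T3 and T1, *foxc1a* was downregulated, *foxq1a* was upregulated, and *foxf2a* had a log2 fold change of 0.80 (limma adjusted *p* = 0.0178) without a call. The duplicate cluster on chromosome 20 holds *foxq1b*, *foxf2b* and *foxc1b*, with gaps of 4605 and 9431 bases. *foxc1b* was not called in any comparison. *foxq1b* and *foxf2b* did not exceed 0.399 and 0.477 RPKM, so on this scale they could not be called, and the 2 clusters cannot be compared by calls.

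*foxn4* (chr5:19385503-19400164), a factor of retinal and spinal interneuron progenitors, had the largest log2 fold change of the Fox genes and was the only member called in all 3 comparisons. *foxn4* had 1.04 and 0.692 RPKM at T1, 2.33 and 2.44 at T2, then 9.33 and 9.08 at T3, and the stages did not overlap. Its log2 fold change was 1.09 between T2 and T1 (SE 0.19, limma adjusted *p* = 0.0131), 1.75 between T3 and T2 (SE 0.08, adjusted *p* = 4.55e-05) and 2.84 between T3 and T1 (SE 0.17, adjusted *p* = 0.000575). The first value was 0.90 and no call without T1 replicate 2. The same call was also lost without T2 replicate 1 or 2 (1.12 and 1.06). *foxn3* (chr17:16565185-16734471), a repressor, had 2.36 and 1.82 RPKM at T1, 6.16 and 6.37 at T2, then 6.20 and 5.79 at T3, and was upregulated between T2 and T1 (1.39, SE 0.16, adjusted *p* = 0.00479) and between T3 and T1 (1.33, SE 0.16, adjusted *p* = 0.00285). Its first call was lost without either T2 library and its second without either T3 library. *foxn1*, *foxn2a* and *foxn2b* were not called.

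FoxO factors are held out of the nucleus by insulin signaling, a control that RNA levels do not show. Of 5 genes, 3 were upregulated between T3 and T1. *foxo1b* (chr10:31809258-31861374) had 0.692 and 0.397 RPKM at T1, 2.52 and 3.33 at T2, then 2.22 and 2.44 at T3, and was upregulated between T2 and T1 (log2 fold change 1.72, SE 0.23, limma adjusted *p* = 0.00642) and between T3 and T1 (1.45, SE 0.19, adjusted *p* = 0.0039). Its calls were lost without either T2 library and without either T3 library, respectively. *foxo3b*, the most abundant FoxO gene at T2 and T3, had 5.33 and 4.46 RPKM at T1, 6.95 and 8.23 at T2, then 11.6 and 13.02 at T3. It was upregulated between T3 and T1 (1.25, SE 0.14, adjusted *p* = 0.00247), but not without T3 replicate 2 (adjusted *p* = 0.0596). *foxo1a* was upregulated over the same interval by 1.34 (SE 0.13, adjusted *p* = 0.00179) and reached 1.25 ± 0.09 RPKM. *foxo3a* and *foxo4* were not called.

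In mammals, FoxP factors are repressors of the brain, lung and immune system. *foxp4* (chr11:21910251-22094396) was the most abundant Fox gene at T2 and T3, with 13.5 and 12.3 RPKM at T1, 29.8 and 31.1 at T2, then 35.8 and 36.6 at T3. The stages did not overlap, and it was upregulated between T2 and T1 (log2 fold change 1.21, SE 0.11, limma adjusted *p* = 0.00268) and between T3 and T1 (1.46, SE 0.11, adjusted *p* = 0.000805). The call of *foxp4* between T2 and T1 was lost without either T2 library. *foxp1a* had 12.7 and 18.1 RPKM at T1, 17.3 and 15.8 at T2, then 11.8 and 12.1 at T3. It and *foxp1b*, *foxp2*, *foxp3a* and *foxp3b* were not called in the comparisons in which they were tested, and *foxp3a* shares exon bases with *tspy* on the same strand, so its 4 to 11 reads per library may belong to either gene.

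FoxK factors are widely expressed, and FoxM1 activates genes of mitosis. *foxk2*, the most abundant Fox gene at T1, had 15.6 and 19.1 RPKM at T1, 15.1 and 15.3 at T2, then 16.1 and 17.3 at T3. In the 6 libraries, *foxk1* lay between 4.40 and 7.74 RPKM, with no overlap of stages and its lowest level at T3 (T3 against T1, log2 fold change -0.67, limma adjusted *p* = 0.00969), and *foxm1* between 5.22 and 6.56 RPKM. None of the 3 was called. *foxe1*, *foxe3*, *foxl1* and *foxl2* were not called either and did not exceed 1.17 RPKM in any library. The lens factor gene *foxe3* lies 4052 bases from *foxd2*.

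**Figure D4:**
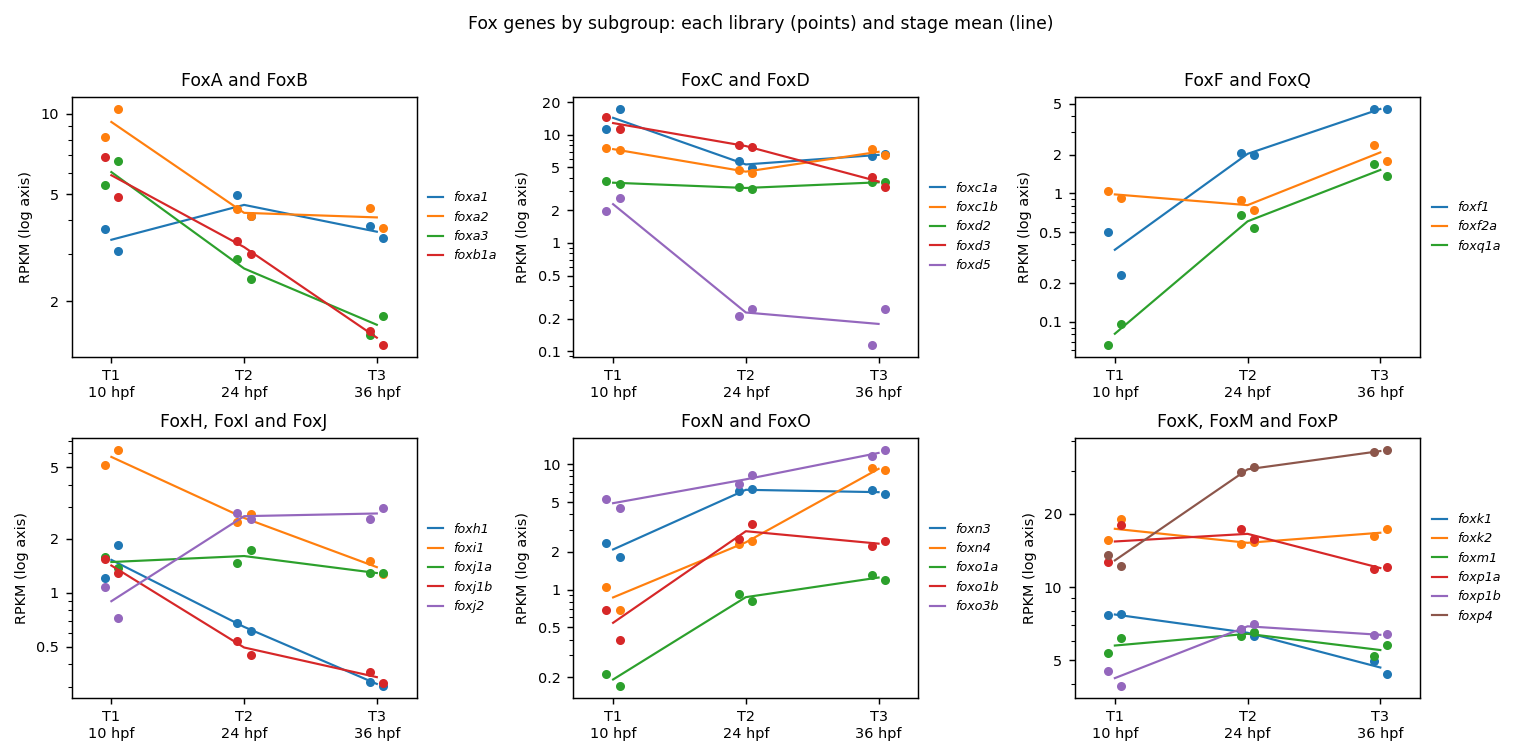
RPKM of selected Fox genes by subgroup on log axes, with a point per library and a line through the stage means. The lines of *foxa3*, *foxb1a*, *foxd3* and *foxi1* run downward, from 5.43 and 6.68 RPKM to 1.5 and 1.76 RPKM for *foxa3*, while those of *foxf1*, *foxn4* and *foxp4* run upward.

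Pairs of paralogs differed in how they shared their summed level. A ratio within a library does not depend on the scaling of that library. *sox9b* exceeded *sox9a* at T1 and T3, and at T2 the 2 genes were close, with *sox9a* to *sox9b* ratios of 0.26 and 0.421 at T1, 1.09 and 0.886 at T2, then 0.542 and 0.51 at T3. The *sox11a* to *sox11b* ratio was near 1 at T1 (1.01 and 0.974) and 0.504 and 0.565 at T3. The stages did not overlap in either pair.

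The *foxj1a* to *foxj1b* ratio was 1.03 and 1.07 at T1 and 3.54 and 4.11 at T3, with T2 at 2.73 and 3.84, so that T2 and T3 overlapped. The *foxo3a* to *foxo3b* ratio was 0.436 and 0.637 at T1, 0.344 and 0.334 at T2, then 0.239 and 0.219 at T3. The *sox4a* to *sox4b* ratio, by contrast, overlapped between all stages, at 1.67 to 2.5. These ratios were described and not tested, and each depends on how reads shared by the copies were counted, which the sources used here do not give.

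**Figure D5:**
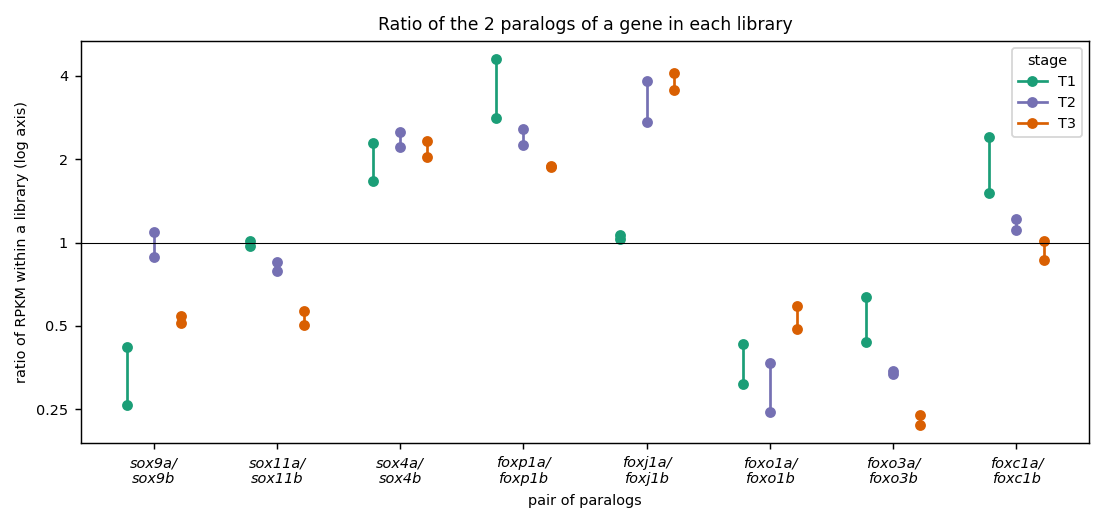
Ratio of the RPKM of 8 pairs of paralogs within each library on a log axis, with a point per library and the 2 libraries of a stage joined. The T3 points of *sox11a* to *sox11b* lie at 0.504 and 0.565, below those of the earlier stages, and those of *foxj1a* to *foxj1b* at 3.54 and 4.11, above those of T1.

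Known partners and targets of the factors were listed from general knowledge, with earlier results of these data known. They were counted in the same fits, in each direction, to be read beside the shares of all genes called. The shares called higher were 12.8%, 4.03% and 17.2% for T2 to T1, T3 to T2 and T3 to T1. Those called lower were 3.45%, 2.11% and 8.76% in the same order. The median log2 fold change of all genes was 0.08, -0.08 and 0.01 for T2 to T1, T3 to T2 and T3 to T1, and the medians of a list follow this order. The lists share genes, so their counts are not separate evidence. For example, *prox1a* is in the vessel and lens lists, and *mixl1* in the endoderm and Nodal lists. *col2a1a* and *col9a1a* are in the cartilage list and in the floor plate and notochord list. *noto* is in the floor plate and notochord list and in the Nodal list. Without T2 replicate 1 or 2, at most 2 genes of any list but the stage list were called between T2 and T1. Without either T3 library, the calls between T3 and T1 went from 8 to 3 for the vessel, 7 to 3 for the crest, 7 to 4 for the cartilage and 6 to 3 for the POU genes. They also went from 5 to 3 for each of the endoderm, ionocyte and Foxo lists, 5 to 2 for the enveloping layer, 3 to 2 for the floor plate and notochord, 3 to 0 for the maternal and 1 to 0 for the cilium and yolk syncytial genes. The related HMG-box genes of the TCF/LEF family, effectors of Wnt signaling, had 1 of 5 called lower between T2 and T1 (*lef1*, -1.08) and between T3 and T2 (*tcf7*, -1.06). Between T3 and T1, *tcf7* was downregulated by a log2 fold change of -2.00 and *tcf7l2* upregulated by 1.499. The medians were -0.21, -0.14 and -0.42.

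POU factors bind DNA with SoxB1 proteins. Of 8 genes, 5 were upregulated and 1 downregulated between T2 and T1 and again between T3 and T1, and between T3 and T2 the count was 1 and 1, with medians of 1.11, 0.21 and 1.53. *pou3f1*, a neural POU gene, went from 3.0 ± 1.2 RPKM at T1 to 12.6 ± 0.3 RPKM at T2 and 39.1 ± 1.0 RPKM at T3 (T3 against T1, log2 fold change 3.55, limma adjusted *p* = 0.000861). *pou5f3*, the early pluripotency partner, went from 5.42 ± 1.55 RPKM to 0.17 ± 0.04 RPKM (-3.13, adjusted *p* = 0.000803). Neural progenitor genes had 3 of 11 higher and 1 lower between T2 and T1, 1 higher between T3 and T2 and 3 higher and 1 lower between T3 and T1. The glial and progenitor gene *fabp7a* gave the largest value (6.82), with *nes* (2.35) and *vim* (2.27) next and *her6* (-1.06) downregulated, and *hes6* (-1.30) was downregulated between T2 and T1. The medians were -0.35, 0.13 and 0.06.

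Neuronal genes tied to SoxC had 6 of 7 upregulated between T2 and T1, 3 between T3 and T2 and 6 between T3 and T1. Neither limma, also at an unadjusted *p* value below 0.05, nor voom gave any lower. *gap43* (5.14), *stmn1b* (4.99), *elavl4* (4.69) and *elavl3* (2.47) gave the largest log2 fold changes between T3 and T1, and *neurog1* was the gene not called in any comparison. The value of *stmn1b* was 5.64 without T1 replicate 1 and 4.34 without T1 replicate 2. The median of the list was 1.49, 0.92 and 2.47 in the 3 comparisons. The summed level of the 7 genes was 104.8 and 74.0 RPKM in the T1 libraries and 744.7 and 713.3 RPKM in the T3 libraries.

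Cartilage and notochord sheath genes that Sox9, Sox5 and Sox6 activate had 7 of 9 upregulated between T2 and T1 and between T3 and T1, and 2 upregulated and 1 downregulated between T3 and T2. *col11a2* (6.26), *col9a1a* (4.18), *col11a1a* (2.91) and *hapln1a* (2.68) led between T3 and T1. The gene called lower was *comp*, a cartilage matrix gene, at -1.74 between T3 and T2. At an unadjusted *p* value below 0.05, limma gave 2 lower between T3 and T2 and 1 lower between T3 and T1, and voom called 2 and 0 lower. *matn1* also fell, from 0.98 ± 0.85 RPKM at T1 to 0.40 ± 0.19 RPKM at T2 and 0.095 ± 0.003 RPKM at T3. The median was 2.68, 0.03 and 2.60. Crest genes downstream of Sox10 had 8 of 11 upregulated between T2 and T1, 2 between T3 and T2 and 7 between T3 and T1. Neither limma nor voom called any lower, and 3 were lower at an unadjusted *p* value below 0.05 between T3 and T2. The list was led by the melanin synthesis genes *tyrp1b* (5.99) and *dct* (5.50), the enteric neuron gene *phox2bb* (2.62) and the melanocyte regulator *mitfa* (2.61) between T3 and T1. The medians were 1.35, 0.37 and 1.81, and *sox10* itself was not called. Whether *phox2bb* and the other genes of this list changed in crest cells was not tested.

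Vessel genes had 6 of 10 upregulated between T2 and T1 and 7 upregulated and 1 downregulated between T3 and T1. *cdh5* (3.68), *kdrl* (1.91), *prox1a* (1.89) and *lyve1b* (1.76) led between T3 and T1, and the early hemangioblast gene *etv2* (-1.71) was downregulated. Between T3 and T2 limma called 0 of the 10 vessel genes, with 4 at an unadjusted *p* value below 0.05, and voom called 1 lower. The medians were 1.33, -0.06 and 1.35.

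Of the endoderm genes, limma called 0 higher in each comparison, with 0, 2 and 1 higher at an unadjusted *p* value below 0.05, and voom called 0, 1 and 1 higher. Of the 8 tested between T2 and T1, 3 were downregulated, and of the 9 tested in the other comparisons 2 between T3 and T2 and 5 between T3 and T1. *her5* (-4.23), *gata5* (-2.14), *prdm1a* (-1.98) and *gata6* (-1.73) led between T3 and T1, and the medians were -0.85, -0.39 and -1.45. Whole-embryo RNA does not show in which tissue these genes changed. Targets of Foxh1 and Nodal had 4 of 9 downregulated and 1 upregulated between T2 and T1, and 3 downregulated in each of the other comparisons. *tbx16* (-4.38), *noto* (-3.22) and *lft1* (-2.72) were those of T3 against T1, and *gsc* (-1.71) was downregulated between T2 and T1. The upregulated gene was *lft2*, at 1.11 between T2 and T1 and -1.89 between T3 and T2. Between T3 and T2, 2 genes were higher at an unadjusted *p* value below 0.05 and voom called 1 higher. *gsc* went from 0.033 ± 0.031 RPKM at T2 to 0.474 ± 0.002 RPKM at T3. The medians were -1.09, -0.23 and -0.84. *tbx16*, *noto*, *gsc* and *mixl1* of this list were also the gastrula genes that checked the labels. Floor plate and notochord genes had 2 of 10 higher and 2 lower between T2 and T1, 1 and 1 between T3 and T2 and 2 and 1 between T3 and T1, with medians of -0.04, 0.01 and -0.16. *noto* (-2.45) and *shhb* (-1.11) were those downregulated between T2 and T1, and *col8a1a* (-1.04) was the one downregulated between T3 and T2. Between T3 and T1 it was *noto* (-3.22). In the other direction, *col2a1a* went from 26.7 ± 12.5 RPKM at T1 to 164.3 ± 2.8 RPKM at T2. Over the same stages *col9a1a* went from 0.55 ± 0.095 RPKM to 7.29 ± 0.15 RPKM. The summed level of the 10 genes was 80.95 and 53.18 RPKM at T1, 214.51 and 207.09 at T2, then 190.3 and 204.44 at T3.

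Lens genes tied to Foxe3 had 3 of 8 upregulated and 1 downregulated between T2 and T1, 7 of 10 upregulated between T3 and T2 and 8 upregulated and 1 downregulated between T3 and T1. *cryba2a* (6.54), *crybb1* (5.55), *lim2.4* (3.44) and *mipb* (3.02) led between T3 and T1, and *mafba* (-1.64) was the exception, with medians of 0.52, 1.82 and 2.26, and the value of *crybb1* was 6.33 and 4.77 without T1 replicate 1 and 2. *foxe3* itself lay between 0.295 and 0.521 RPKM. *cryba2a* and *crybb1* were also the lens genes that checked the labels. *mafba* held 15.5 and 16.8 RPKM of the 24.0 and 25.6 RPKM summed over the list in T1 replicates 1 and 2. Whether the fall of *mafba* lay in the lens was not tested. Ionocyte genes had 2 of 9 upregulated between T2 and T1, 1 between T3 and T2 and 5 between T3 and T1, led by the Na,K-ATPase subunit gene *atp1b1b* (5.28), with medians of 0.73, 0.34 and 1.01. Foxo targets had 3 of 11 higher and 1 lower between T2 and T1, and 4 and 1 between T3 and T1. For T3 against T2, limma called 0 higher and 1 lower, with 5 higher at an unadjusted *p* value below 0.05, and voom called 2 higher. The medians were 0.19, 0.10 and 0.50. Between T3 and T1, *pck1* (2.75), *irs2b* (2.67) and *igfbp1a* (2.18) were upregulated and the ubiquitin ligase gene *fbxo32* (-2.15) downregulated. *pck1* had 2.27 and 0.102 RPKM in the T1 libraries, and its value was 3.85 without T1 replicate 1 and 1.65 without T1 replicate 2. *trim63a*, which was upregulated between T3 and T1 (2.07), was downregulated between T3 and T2 (-1.13).

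Motile cilium genes had 1 of 12 called, *ccdc39* (1.02, T3 against T1). In the other comparisons limma called 0, with 4 and 5 at an unadjusted *p* value below 0.05, and voom called 1 in each. The medians were 0.39, -0.23 and 0.16. Mitotic genes tied to Foxm1 had 0 of 11 called in each comparison, with medians of -0.22, -0.36 and -0.51. At an unadjusted *p* value below 0.05, 2, 11 and 9 of the 11 were lower and none higher, and voom called 1 lower between T3 and T1. As the other cell types of a whole embryo, enveloping layer genes had 1 of 5 higher, 2 lower, and 2 higher and 3 lower in the 3 comparisons. Yolk syncytial genes had 1 and 1 of 4 between T2 and T1, 0 of 3 between T3 and T2 (1 at an unadjusted *p* value, 0 by voom) and 1 higher between T3 and T1. Maternal genes had 2 and 3 of 7 lower against T1 and 0 of 4 between T3 and T2 (2 at an unadjusted *p* value, 2 lower by voom). The 1 hatching gland gene measured, *ctslb*, was upregulated between T2 and T1 (1.09). In the other comparisons limma called it in neither, with an unadjusted *p* value below 0.05 in both, and voom did not call it.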

How the data were processed

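Whole-embryo RNA of 6 libraries (T1, T2 and T3, 2 each) was depleted of rRNA and sequenced by the authors from a stranded kit. The authors mapped reads with STAR to GRCz11, counted those on exons with featureCounts and deposited RPKM per gene in each library, in a gene table and an lncRNA table of 9029 transcripts. The strand setting of the counting and the handling of reads shared by copies are stated neither in the methods nor in the labels. From the deposited RPKM and exon lengths, reads were recovered as whole numbers for 100% of values (tolerance 0.01 read), which gave the depth. The deposited length was used as given. No column was left without a sample. The authors' own comparison with edgeR was not used.

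The members and gene lists were chosen with earlier results of these data known. log2(RPKM + 0.5) was fitted with limma 3.58.1 (lmFit, contrasts.fit, eBayes with trend and robust through statmod 1.5.0) in R 4.3.3 on the 4 libraries of each stage pair with no covariate, and *p* values were adjusted over all genes tested. A count test was not the main one, since the unit is RPKM. The fit was tested on simulated data. Tables used Python 3.11.15, pandas 2.3.3 and numpy 2.4.6, and plots matplotlib 3.10.9.

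Members given for each library are those among the 12 largest called changes of a comparison with at least 1 RPKM in both libraries of the higher stage and no overlap of stages, and the most abundant of each subgroup. Other members appear when called, as paralogs of these, or, chosen after their values were seen, because a library decided their value or to complete a subgroup. Lists give up to 4 called genes and those called against most of the list. The lists cover TCF/LEF, POU, endoderm, floor plate and notochord, motile cilium, crest, cartilage, vessel, ionocyte, mitosis, Foxo target, neural progenitor, neuronal, lens, Nodal target, stage, enveloping layer, yolk syncytial, maternal and hatching gland genes. Alternatives were other pseudocounts, filters, scalings, fold thresholds and variance moderation, all 6 libraries, annotated lncRNAs in the fit, voom on the recovered reads, a replicate block and single libraries left out. Sequences of the members were not analysed here, and 1 subgroup, which the counts include, is not reported here.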

Additional observations from a re-analysis of the deposited data

Results flagged for a closer look

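A set of 4 assembled transcripts of the lncRNA table, which no comparison used, lie antisense to exons of members and were above the level of 3 reads in both libraries of a stage. TCONS_00014328, antisense to *foxp2*, had a mean of 9.37 RPKM at T1, 6.33 at T2 and 7.80 at T3, where 3 reads correspond to at most 0.245 RPKM. TCONS_00014778, antisense to *sox5*, had 4.45, 3.87 and 3.75 RPKM, and TCONS_00014793, also antisense to *sox5*, had 0.220 RPKM at T2 and 0.627 RPKM at T3. TCONS_00032498, antisense to *foxp1b*, had 1.42, 1.22 and 0.903 RPKM. The sources used here do not state a strand setting for the counting, so these reads cannot be told apart from those of the partner genes, and the 2 tables may have been scaled separately. No test was run on them.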

How the results depend on the processing

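No call of a member changed direction under any alternative. The number of members called between T2 and T1 (13) was 24 with a pseudocount of 0.1, 8 with a pseudocount of 1, 23 with voom on the recovered reads and 37 with no fold threshold, where 24.2%, 11.7%, 24.9% and 38% of all genes were called beside 16.3%, and it ranged from 0 to 18 when single libraries were left out. Between T3 and T2 (5) it was 13, 3, 16 and 38 (12.2%, 4.02%, 14.8% and 43.5% of all genes, beside 6.14%), and 4 to 6 without single libraries. Between T3 and T1 (30) it was 47 with no fold threshold (53.9% of all genes, beside 25.9%) and 15 to 33 without single libraries. A fit without 1 library takes its spread from the other stage alone, so the lone library is assumed to vary like those. The T1 libraries varied more. Over members, the log2 difference between the libraries of a stage had an SD of 0.441 at T1 and 0.151 at T2 and at T3. Calls made or kept without a T1 library thus rest on too small a spread. Of the 13 calls between T2 and T1, 5 were lost with a pseudocount of 1, 3 with quantile normalization and 1 with aligned medians, and of the 30 between T3 and T1 4, 2 and 3. No filter, a filter at 1 RPKM (which left 12 of the 13 tested), plain eBayes, annotated lncRNAs in the fit and all 6 libraries lost none.

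Quantile normalization moved the median of all genes by -0.21 between T2 and T1 and -0.20 between T3 and T1 (log2). It gave 2119 genes higher and 1422 lower between T2 and T1, beside 2953 and 795, and 3113 and 2888 between T3 and T1, beside 3968 and 2026. The members split into 6 higher and 8 lower, beside 9 and 4, and into 16 and 14, beside 18 and 12. Alignment of the medians moved T3 against T2 by 0.12 and T3 against T1 by 0.11. Between T3 and T2 it gave 1202 genes higher and 329 lower, beside 933 and 488, and 7 members, all higher. The cause of these differences was not tested.

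Libraries with the same replicate number did not deviate together (r of 0.01, -0.05 and -0.07 across 11894 genes, which are not independent replicates). With a replicate block, 14, 5 and 30 members were called, and the added member was *sox17* between T2 and T1. Levels below 0.0579 to 0.0688 RPKM for 1 kb cannot be read at this depth.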
